A study of Mus musculus with 4 samples.

Results

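The genes described here are the STING pathway and its regulators: the adaptor STING (Tmem173, now also called Sting1), the kinases Tbk1 and Ikbke, the transcription factor Irf3, and 6 regulators (Trex1, Samhd1, Enpp1, Nlrc3, Trim56 and Nlrx1). The 10 genes were chosen by name. Of these, 9 were found, each in both deposited tables, among 14100 genes that both tables hold; Trex1 was not analysed here.

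In this pathway DNA in the cytosol is bound by the enzyme cGAS, which makes the cyclic dinucleotide cGAMP. STING, a membrane protein of the endoplasmic reticulum, binds cGAMP, moves to the Golgi and recruits TBK1, which phosphorylates STING and then IRF3, and IRF3 enters the nucleus and induces type I interferon. Endothelial cells are among the cell types known to carry STING, and microglia carry it in the brain.

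RNA of brain endothelial cells from C57BL/6 mouse embryos at embryonic day 18 was sequenced in 2 libraries of genotype STINGECKO (numbered 1 and 2) and 2 of WT (numbered 3 and 5), and reads were counted per gene. The labels give no treatment, and the design text speaks of samples in triplicate. The name of the genotype points to STING (Tmem173) as the targeted gene; neither the labels nor the design text name a Cre driver, the deleted exons or how many animals made up a library. Nothing in the labels ties the libraries of a genotype to separate animals, and p-values therefore measure only the spread between libraries. In WT that spread may be technical, while the STINGECKO libraries differed in sex-linked reads.

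The libraries held 18610298 and 22169261 listed reads in STINGECKO 1 and 2 and 21472677 and 20591981 in WT 3 and 5. Of the 14100 genes, 13.2% had 0 reads in STINGECKO 2, against 2.68% in STINGECKO 1, 5.25% in WT 3 and 2.39% in WT 5. Endothelial markers had a median over 12 genes of 547 and 473 CPM (a gene's reads scaled to a common library size) in STINGECKO 1 and 2 and 576 and 567 CPM in WT 3 and 5. None of the 12 was at 0 reads, but Slco1a4, a transporter of the blood-brain barrier, had 143 and 1 reads in STINGECKO 1 and 2 and 142 and 44 reads in WT 3 and 5. Pecam1, Tek, Tie1 and Slc2a1 were also lowest in STINGECKO 2. Cldn5 and Kdr were highest there, and Abcb1a lay at 214 to 226 CPM in every library. The sex-linked genes differed between libraries: Ddx3y had 3623 reads and Xist 0 reads in STINGECKO 1. Xist had 876, 2347 and 3374 reads in STINGECKO 2, WT 3 and WT 5. The STINGECKO libraries were thus not repeats of the same RNA, and the part of sex in any difference was not tested.

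The promoters of the gene with the largest fold between libraries of a genotype among those with reads in every library (Tbk1), the most even one (Irf3) and the only one whose genotypes did not overlap (Nlrx1) are shown as reference, each from 250 bases before to 50 after a RefSeq gene start (GRCm38.p6, sense strand, 5′ to 3′). Both strands were searched for GAAA followed after any 2 bases by another GAAA (the core of the interferon-stimulated response element), GGG followed after any 3 bases by TTCC (an NF-kB site), CCGGAAGT (an ETS site) and CACGTG (an E-box), and matches are in capitals. The Tbk1 window is chr10:121586745-121587044, minus strand; that of Irf3 is chr7:44997398-44997697, plus strand; that of Nlrx1 is chr9:44268550-44268849, minus strand, at the upstream of its 2 listed starts.
Tbk1: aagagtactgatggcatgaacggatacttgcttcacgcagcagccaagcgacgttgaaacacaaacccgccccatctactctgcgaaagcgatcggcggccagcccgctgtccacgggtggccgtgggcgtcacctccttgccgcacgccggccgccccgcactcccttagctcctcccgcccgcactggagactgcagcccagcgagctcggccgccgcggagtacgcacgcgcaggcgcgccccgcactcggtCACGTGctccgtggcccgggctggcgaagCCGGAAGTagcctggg
Irf3: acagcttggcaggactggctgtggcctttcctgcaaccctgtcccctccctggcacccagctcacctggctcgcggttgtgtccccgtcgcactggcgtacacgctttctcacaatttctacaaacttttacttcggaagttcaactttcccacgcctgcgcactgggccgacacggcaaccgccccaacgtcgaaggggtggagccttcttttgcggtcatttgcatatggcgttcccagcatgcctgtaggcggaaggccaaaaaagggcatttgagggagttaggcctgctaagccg
Nlrx1: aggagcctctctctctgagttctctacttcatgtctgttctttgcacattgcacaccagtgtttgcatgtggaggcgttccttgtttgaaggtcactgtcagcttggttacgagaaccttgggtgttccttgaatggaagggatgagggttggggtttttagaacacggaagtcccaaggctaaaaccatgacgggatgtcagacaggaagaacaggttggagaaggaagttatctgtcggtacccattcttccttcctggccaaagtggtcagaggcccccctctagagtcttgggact
The Tbk1 window held an E-box from base 6 of the transcribed part, read alike on both strands, and an ETS site from base 35. Among 32851 promoter windows of this length, 7.15% held the E-box, 3.89% the ETS site, 5.56% the NF-kB site and 3.44% the interferon-response core. The windows of Irf3 and Nlrx1 held none of these letters, and among the other genes of the pathway found in the promoter table only Enpp1 had a match, GGGGGATTCC, 103 bases before its start.

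None of the 9 genes passed the genotype test. The comparison asked which genes differ between STINGECKO and WT endothelial cells. With p adjusted by Benjamini-Hochberg over 13365 genes, edgeR's quasi-likelihood test called 0 of the 9, with an adjusted p of 1.00 for each, and 0% of all genes (smallest adjusted p = 0.977). At an unadjusted p under 0.05 there were 0 of the 9 by edgeR's quasi-likelihood test, against 4.8% of all genes. At an adjusted p under 0.05, DESeq2, the edgeR likelihood ratio test and limma-voom also called 0 of the 9. They called 0.651%, 0.247% and 0% of all genes, in that order. The log2 fold change of STINGECKO over WT was below 0 for 6 of the 9 and above 0 for 3, with a median of -0.98, beside 51.8% below 0 and a median of -0.03 over all genes tested. That median of the 9 was -0.06 without WT 3, -0.01 without WT 5 and -0.42 without STINGECKO 2, and -0.04 with limma-voom.

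**Figure D1:**
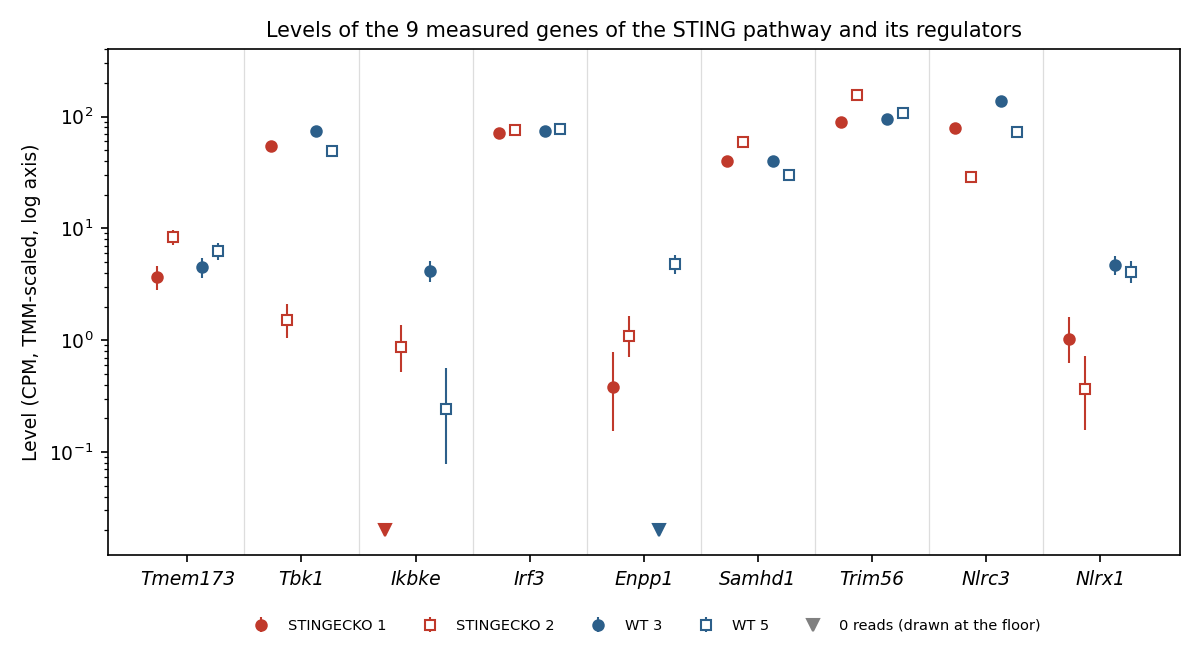
Level of each gene in each library in CPM (log axis, TMM-scaled); points are single libraries, red for STINGECKO and blue for WT, and bars are exact 95% binomial intervals for counting error, with triangles for 0 reads. Irf3 lies at 71.6 to 76.8 CPM in all 4 libraries, Tbk1 at 1.51 CPM in STINGECKO 2 alone, and Nlrx1 is lower in both STINGECKO libraries than in both WT libraries.

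Tmem173 was a low-level gene in every library. It lies on chromosome 18 (35733678 to 35740554, minus strand, GRCm38). Its level was 3.65 and 8.32 CPM in STINGECKO 1 and 2, from 67 and 182 reads, against 4.48 and 6.27 CPM in WT 3 and 5, from 97 and 130 reads. The highest and the lowest of the 4 values both belonged to the libraries labelled STINGECKO, so its level did not tell the genotypes apart, and each direction given here rests on the labels. The exact 95% intervals for counting error, 2.83 to 4.64 CPM in STINGECKO 1 and 7.15 to 9.62 CPM in STINGECKO 2, did not meet. Levels averaged 5.98 ± 3.30 CPM in STINGECKO and 5.38 ± 1.26 CPM in WT (SD, n = 2 each). On the log2 scale the fold change was 0.16 (SE 1.26). Its sign turned without STINGECKO 2 (-0.55) and without WT 3 (-0.06). Reads are counted over the whole gene, so transcript outside a deleted part would still be counted, and such a count does not check the deletion.

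Markers of microglia and macrophages, cells that also carry STING, summed to 583 and 420 CPM over 14 genes in STINGECKO 1 and 2 and to 580 and 1607 CPM in WT 3 and 5. Of the 14, Ptprc and Tmem119 had 0 reads in STINGECKO 2 and none had 0 reads elsewhere. Tmem173 was highest in STINGECKO 2, where this sum was lowest. The list was not uniform: P2ry12 (47.9 CPM), C1qc (69.5 CPM) and Aif1 (6.17 CPM) were also highest in STINGECKO 2. The rest of the list was highest in a WT library. In bulk RNA, fewer cells of a type and less RNA per cell cannot be told apart, and the part of these cells in any result was not tested.

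Tbk1, the kinase that phosphorylates STING and IRF3, was near the WT level in STINGECKO 1 and far below it in STINGECKO 2. It lies on chromosome 10 (121546455 to 121586787, minus strand). Its level was 54.6 and 1.51 CPM in STINGECKO 1 and 2, from 1003 and 33 reads, against 73.9 and 48.7 CPM in WT 3 and 5, from 1599 and 1011 reads. STINGECKO 1 lay between the WT libraries, so the genotypes overlapped, and the libraries of STINGECKO differed 36.2-fold from each other. In STINGECKO 2 the gene stood at 0.0255 of its mean in the other 3 libraries. Of 2351 genes whose mean there was within 1.5 times that of Tbk1, 1.79% were as low or lower in STINGECKO 2, a comparison added after the values were seen. The log2 fold change was -1.13 (SE 1.43). It was -0.16 without STINGECKO 2. Without STINGECKO 1, which leaves STINGECKO 2 as the only library of its genotype, it was -5.34.

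Ikbke encodes IKK-epsilon, a kinase related to TBK1 that can also phosphorylate IRF3. The gene, on chromosome 1 (131254343 to 131279606, minus strand), was barely detected, with 0 and 19 reads in STINGECKO 1 and 2 and 90 and 5 reads in WT 3 and 5. Only WT 3 stood out, at 4.16 CPM, where STINGECKO 1, STINGECKO 2 and WT 5 had 0, 0.868 and 0.241 CPM. The 0 reads in STINGECKO 1 allow a level of up to 0.201 CPM by the exact 95% interval. Its log2 fold change was -2.32 (SE 2.53), and it was 0.84 without WT 3. Antisense genes overlap 1.76% and 0.721% of its exon bases, and without a stated strand setting their reads cannot be told apart there.

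Irf3, the transcription factor that TBK1 activates, was the most even of the genes. It lies on chromosome 7 (44997648 to 45002848, plus strand). Its level was 71.6 and 75.5 CPM in STINGECKO 1 and 2 and 74.6 and 76.8 CPM in WT 3 and 5. The 4 libraries overlapped, and the libraries of a genotype differed 1.05-fold in STINGECKO and 1.03-fold in WT. Levels averaged 73.6 ± 2.73 CPM in STINGECKO and 75.7 ± 1.56 CPM in WT (SD, n = 2 each). The fitted log2 fold change was -0.04 (SE 0.32). Bcl2l12 on the opposite strand shares 2.56% of the exon bases of Irf3.

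Nlrc3 and Nlrx1 are NOD-like receptors known as brakes on the pathway: NLRC3 hinders the binding of TBK1 to STING, and NLRX1, a protein found at mitochondria, has been shown to hold TBK1 away from STING. Both had mean levels below WT in STINGECKO, and neither passed the test. Nlrc3, on chromosome 16 (3945007 to 3976632, minus strand), was at 78.6 and 28.5 CPM in STINGECKO 1 and 2 and at 138 and 73.5 CPM in WT 3 and 5. STINGECKO 1 lay just above WT 5, so the genotypes overlapped by a narrow margin. The log2 fold change was -0.98 (SE 0.61), and it was -0.42 without STINGECKO 2, -0.45 without WT 3 and -1.89 without STINGECKO 1.

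Nlrx1, on chromosome 9 (44252717 to 44268599, minus strand), was at 1.04 and 0.366 CPM in STINGECKO 1 and 2, from 19 and 8 reads, against 4.67 and 4.10 CPM in WT 3 and 5, from 101 and 85 reads. It was the only 1 of the 9 genes whose genotypes did not overlap, where 19% of all genes tested lay lower in STINGECKO without overlap and 34.4% lay apart in either direction. Levels averaged 0.700 ± 0.473 CPM in STINGECKO and 4.38 ± 0.403 CPM in WT (SD, n = 2 each). Its log2 fold change of -2.64 (SE 1.55) ranged from -3.56 to -2.07 when each library was left out in turn. In STINGECKO 2, 45.8% of 1473 genes of like level in the other libraries were as low or lower relative to them. A gene of undetermined status on the opposite strand, Gm10686, overlaps 11.9% of the exon bases of Nlrx1.

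Summed markers of neurons and of astrocytes and radial glia followed the same order as Nlrx1 over the libraries. The sums of the other marker lists did not. Pericyte and smooth muscle markers summed to 9074 and 9354 CPM over 7 genes in STINGECKO 1 and 2. They summed to 7330 and 6753 CPM in WT 3 and 5, with 3 of the 7 higher and 2 lower in STINGECKO without overlap. The neuronal sum over 8 genes was 65.5 and 27.7 CPM in STINGECKO 1 and 2 and 157 and 98.8 CPM in WT 3 and 5, and 5 of the 8 were lower in STINGECKO without overlap, beside 19% of all genes tested. The sum over 7 astrocyte and radial glia genes was 331 and 225 CPM in STINGECKO 1 and 2 and 383 and 341 CPM in WT 3 and 5, with 3 of the 7 lower in STINGECKO without overlap. Of the neuronal genes, 2 had 0 reads in STINGECKO 1 and 3 in STINGECKO 2. Of the astrocyte and radial glia genes, Aldh1l1, Aqp4 and Slc1a2 had 0 reads in STINGECKO 2. The neuronal marker Syn1 had 0 reads in both STINGECKO libraries and 279 and 291 reads in WT 3 and 5. Stmn2, Map2 and Snap25 of the same list overlapped between genotypes. Stmn2 was at 18.7 CPM in STINGECKO 1 and 9.79 CPM in WT 5, and Map2 at 23.8 and 7.18 CPM there. The part of either cell type in the Nlrx1 difference was not tested.

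**Figure D2:**
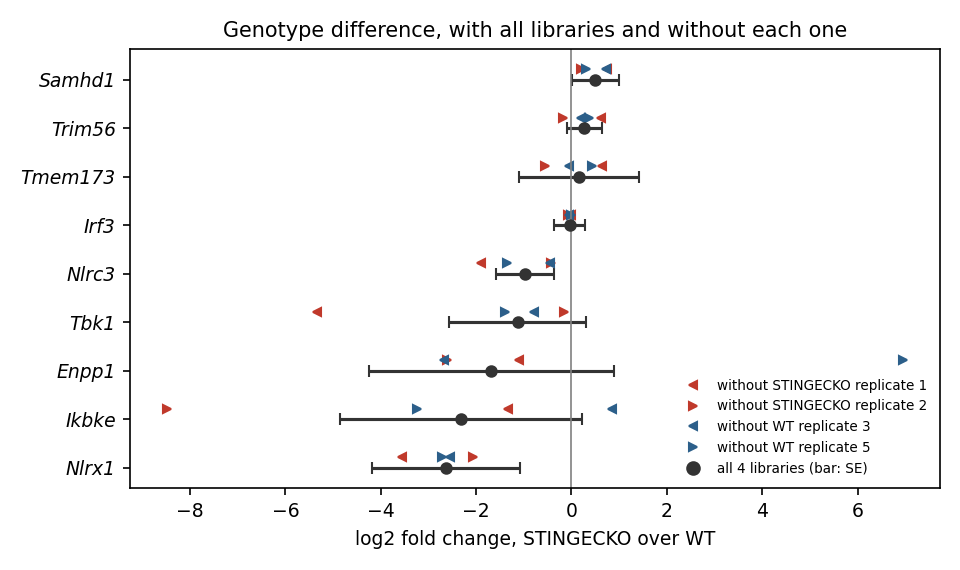
Log2 fold change of STINGECKO over WT for each gene by the edgeR quasi-likelihood fit (black, bar: SE) and without each library in turn (triangles). Nlrx1, Nlrc3, Tbk1, Irf3 and Samhd1 keep their sign without any library, while Enpp1 runs from -2.68 to 6.95 and Ikbke from -8.48 to 0.84, where 6.95 and -8.48 are set against a genotype left with 0 reads.

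Trim56 encodes a ubiquitin ligase known to promote STING and cGAS signalling. It lies on chromosome 5 (137105644 to 137116209, minus strand) and had the highest mean CPM of the 9. Its level was 89.5 and 155 CPM in STINGECKO 1 and 2 and 95.3 and 108 CPM in WT 3 and 5. STINGECKO 1 was the lowest library and STINGECKO 2 the highest, so the WT libraries lay between them. Its log2 fold change was 0.27 (SE 0.36), and it was -0.17 without STINGECKO 2.

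Samhd1 encodes a deoxynucleotide triphosphohydrolase that limits the build-up of self DNA, and loss of its human counterpart causes an interferon disease. It lies on chromosome 2 (157097533 to 157135265, minus strand). Its level was 40.0 and 58.6 CPM in STINGECKO 1 and 2 and 40.1 and 29.8 CPM in WT 3 and 5. STINGECKO 1 and WT 3 were level, STINGECKO 2 stood above them and WT 5 below. The log2 fold change was 0.50 (SE 0.49) and ranged from 0.20 to 0.75 when each library was left out.

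Enpp1 encodes the ectoenzyme that breaks down cGAMP outside the cell. It lies on chromosome 10 (24637914 to 24712159, minus strand) and had 7 and 24 reads in STINGECKO 1 and 2 and 0 and 99 reads in WT 3 and 5. The WT libraries held both extremes, with 4.77 CPM in WT 5 and no read in WT 3, which allows up to 0.171 CPM by the exact 95% interval. The STINGECKO libraries lay between them, at 0.381 and 1.10 CPM. Its log2 fold change was -1.68 (SE 2.57). Without WT 5 it was 6.95, a value that depends on the fit's prior count, since the remaining WT library had 0 reads.

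Trex1, the exonuclease that degrades cytosolic DNA, lies on chromosome 9 (109057933 to 109059734, minus strand, GENCODE M21). In that annotation 100% of its exon bases also belong to Atrip on the same strand. Atrip itself had 6 and 0 reads in STINGECKO 1 and 2 and 1 and 11 reads in WT 3 and 5. No value is given for Trex1.

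Compared per length, Irf3 was the most abundant of the 9, with a mean over the 4 libraries of 21.7 CPM per kilobase of exon. Trim56, Tbk1 and Nlrc3 followed, at 12.1, 11.4 and 11.3 CPM per kilobase, and they overlapped one another across the libraries. Samhd1 was at 4.61, Tmem173 at 2.07 and Nlrx1 at 0.442 CPM per kilobase. Enpp1 and Ikbke were lowest, at 0.152 and 0.146 CPM per kilobase, and both overlapped with Nlrx1 and each other. By this measure 82.7% of 14076 genes lay below Irf3, 33.0% below Tmem173 and 2.53% below Ikbke. Libraries of a genotype differed at least as much as the genotype means did in 8 of the 9 genes, the exception being Nlrx1, and in 83.7% of all genes tested.

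**Figure D3:**
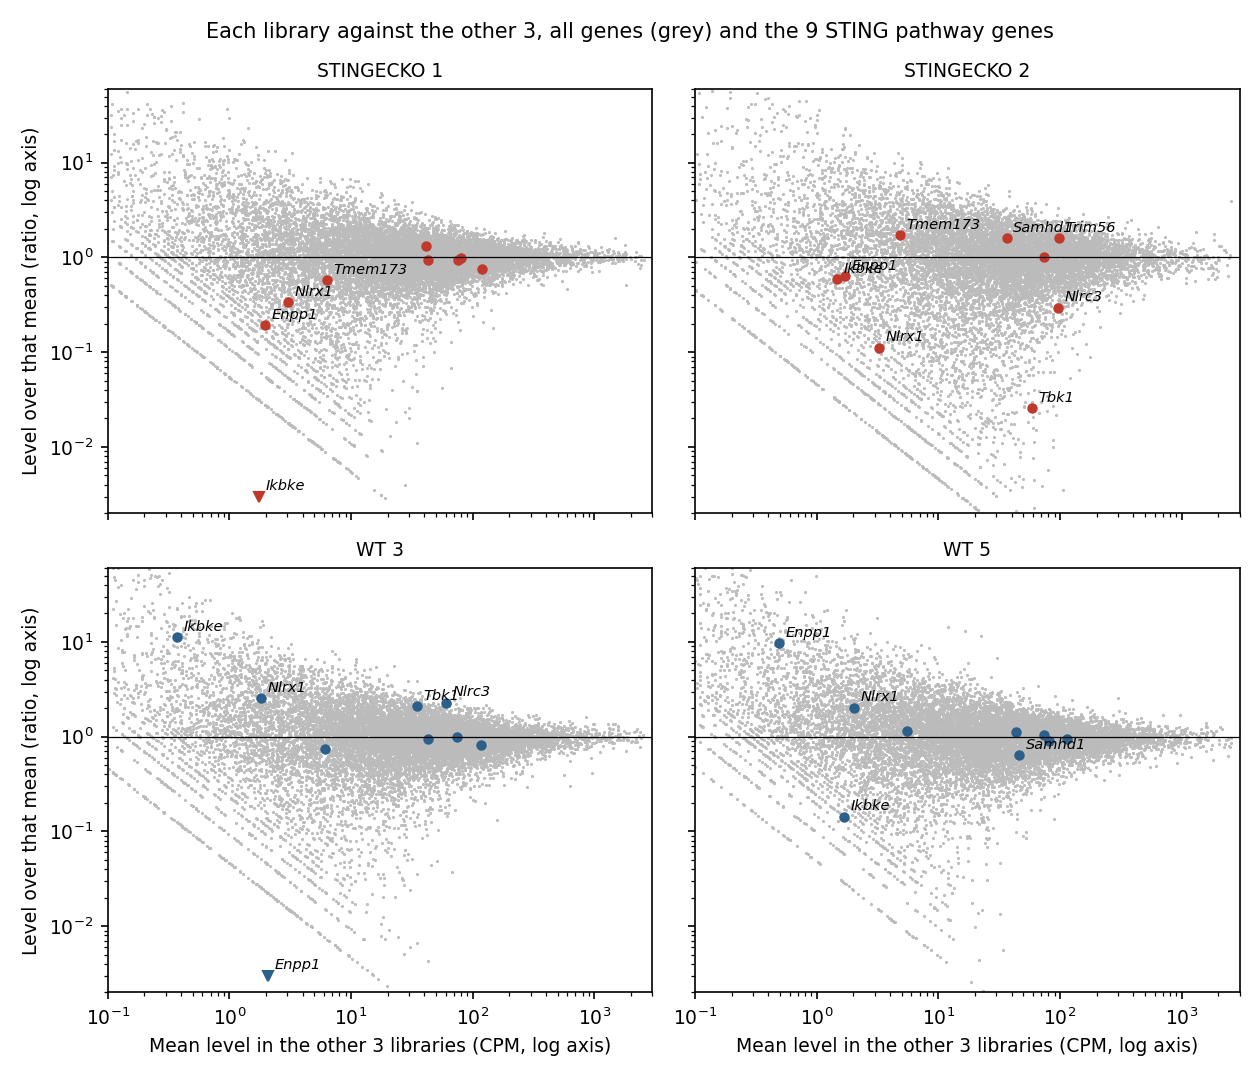
Level of each gene in 1 library over its mean in the other 3 (ratio, log axis) against that mean (CPM, log axis), with 1 panel per library; grey points are all genes with reads there, coloured points the 9 genes, and triangles genes with 0 reads, drawn near the lower edge. Tbk1 lies at 0.0255 in STINGECKO 2, while Irf3 stays between 0.947 and 1.04 in all 4 panels.

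The authors' deposited tables compare 1 library with 1 library, so their marks concern those libraries and not the genotypes. In the authors' deposited table of STINGECKO 1 over WT 3, 3 of the 9 genes were marked as changed, beside 40.9% of all genes in it (21.5% up and 19.4% down). These were Ikbke and Nlrx1 as lower (log2 fold changes of -7.29 and -2.20 in the authors' deposited table) and Enpp1 as higher (4.01). The values of Ikbke and Enpp1 rest on a library with 0 reads, which the authors' deposited table enters as 0.5 of a read. In the authors' deposited table of STINGECKO 2 over WT 5, 5 of the 9 were marked, beside 52.1% of all genes in it (17% up and 35.1% down). Tbk1, Nlrx1, Enpp1 and Nlrc3 were lower there, with log2 fold changes of -5.04, -3.52, -2.15 and -1.40 in the authors' deposited table, and Ikbke was higher at 1.82. Nlrx1 alone was marked in the same direction in both of the authors' deposited tables, while Enpp1 and Ikbke were marked in opposite directions. Among the 9, the marks fell on the larger changes, so an unmarked gene is not one without a difference there. Nlrc3 and Tbk1 were also lower in both, but unmarked in STINGECKO 1 over WT 3 (-0.843 and -0.467 in the authors' deposited table). Irf3 was slightly lower in both and unmarked.

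The wider pathway was described with 6 lists of 87 genes that exclude the members, of which 75 were tested. After adjustment over all genes tested, edgeR's quasi-likelihood test called 0 of the 75 in either direction, beside 0% of all genes, and 4 had an unadjusted p under 0.05, beside 4.8% of all genes. The median log2 fold change was -0.07, against -0.03 over all genes tested. Of the 75, 16 were lower and 16 were higher in STINGECKO without overlap, beside 19% and 15.4% of all genes.

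Of 17 genes of DNA sensing and cGAMP transport, 15 were tested and 0 passed in either direction, with a median log2 fold change of -0.06. The 3 most abundant were the volume-regulated anion channel subunits Lrrc8a and Lrrc8c, whose channels carry cGAMP, and Slc19a1, a folate carrier that imports cGAMP in human cells. Slc19a1 was at 210 and 318 CPM in STINGECKO 1 and 2 and at 125 and 149 CPM in WT 3 and 5, higher in STINGECKO without overlap (log2 fold change 0.94, SE 0.29). Lrrc8a was at 379 and 391 CPM in STINGECKO and 374 and 231 CPM in WT, and Lrrc8c at 135 and 46.6 CPM in STINGECKO and 152 and 162 CPM in WT. Mb21d1, which encodes cGAS and was named after its values were seen, had 45 and 0 reads in STINGECKO 1 and 2 and 210 and 5 reads in WT 3 and 5. As with Ikbke, only WT 3 was high, and the log2 fold change of -2.02 (SE 2.78) turned to 2.32 without WT 3. Aim2, a DNA sensor of the inflammasome also named after its values were seen, had 0 and 1 reads in STINGECKO and 231 and 13 reads in WT.

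Of 17 genes of STING trafficking, all were tested and 0 passed the edgeR test in either direction, with a median log2 fold change of -0.11. Its most abundant members were Tmed2, which assists the transport of STING out of the endoplasmic reticulum, Surf4, which returns it from the Golgi, and Rab7, a late endosome GTPase. Their log2 fold changes were 0.23 (SE 0.19), -0.17 (SE 0.20) and -0.16 (SE 0.23). Stim1, the calcium sensor that holds STING in the endoplasmic reticulum, was named after its values were seen. It had 610 and 1978 reads in STINGECKO 1 and 2 and 154 and 89 reads in WT 3 and 5, so that both STINGECKO libraries were higher. Its log2 fold change was 3.44 (SE 0.77) with an adjusted p of 0.977 by the edgeR quasi-likelihood test. It was the only gene of these lists called by DESeq2 (adjusted p = 0.0037, where DESeq2 called 0.651% of all genes). Its adjusted p was 0.0569 by the edgeR likelihood ratio test and ran up to 1 over the other settings.

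Of 17 genes of STING ubiquitination and phosphorylation, 15 were tested, with 0 past the test in either direction and a median log2 fold change of -0.08. Tollip, which stabilises STING, was at 141 and 184 CPM in STINGECKO 1 and 2 and 138 and 140 CPM in WT 3 and 5. The deubiquitinase Usp21 and the phosphatase Ptpn1 overlapped between genotypes, with log2 fold changes of -0.19 (SE 0.28) and -0.08 (SE 0.30). Of 13 TBK1 adaptors and IRF3 cofactors, all were tested and 0 passed in either direction, with a median of -0.03. The coactivator Crebbp was at 170.5 and 184 CPM in STINGECKO and 208 and 225 CPM in WT. Ddx3x, an X-linked helicase that binds TBK1 and IKK-epsilon, was at 135 and 130 CPM in STINGECKO and 218 and 205 CPM in WT (log2 fold change -0.67, SE 0.22). STINGECKO 1 alone held reads of its Y-linked copy Ddx3y in the first table, and reads shared between such copies can be split or lost in counting. STINGECKO 2, at a like Ddx3x level, held Xist reads and has no Ddx3y count listed. The part of shared reads in the Ddx3x difference was not tested.

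Of 11 nucleases and genes that restrict self nucleic acid, 10 were tested, with 0 past the test in either direction and a median log2 fold change of -0.14. Pld3, a lysosomal exonuclease, was at 94.8 and 129 CPM in STINGECKO 1 and 2 and 144 and 173 CPM in WT 3 and 5, without overlap. Banf1, which shields nuclear DNA from cGAS, and Rnaseh2c, a subunit of ribonuclease H2, were each lowest in STINGECKO 1 and highest in STINGECKO 2. Their log2 fold changes were 0.13 (SE 0.48) and 0.25 (SE 0.49), and both were below 0 without STINGECKO 2.

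Of 12 genes induced through IRF3 and NF-kB, 5 were tested and 0 passed in either direction. Their median log2 fold change was 0.92, the value of Isg15 (SE 1.41), and they ran from -2.52 to 2.99. Rsad2, an antiviral enzyme, was at 66.6 and 0 CPM in STINGECKO 1 and 2 and 1.62 and 28.0 CPM in WT 3 and 5. Irf7, the interferon-induced relative of IRF3, was at 13.1 and 2.60 CPM in STINGECKO and 3.93 and 4.87 CPM in WT, and Ifit2 at 3.92 and 0 CPM in STINGECKO and 8.55 and 13.9 CPM in WT. STINGECKO 1 was the highest library for Rsad2 and Irf7, and STINGECKO 2 the lowest for all 3. In the other tested genes of the list STINGECKO 2 was not the lowest library. Tnf, an inflammatory cytokine, had 0 and 291 reads in STINGECKO 1 and 2 and 9 and 26 reads in WT 3 and 5, so that STINGECKO 2 was its highest library. Isg15, an interferon-induced ubiquitin-like protein, was at 4.85 and 3.70 CPM in STINGECKO and 1.29 and 3.23 CPM in WT. It was highest in STINGECKO 1 and lowest in WT 3. In the table that sets STINGECKO 1 beside WT 3, Ifit1 had 266 reads in STINGECKO 1 and 0 in WT 3, Oasl1 251 and 9, and Ifit3 93 and 50. In the table that sets STINGECKO 2 beside WT 5, Cxcl10 had 0 reads in STINGECKO 2 and 44 in WT 5, and Ccl5 9 and 3.

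**Figure D4:**
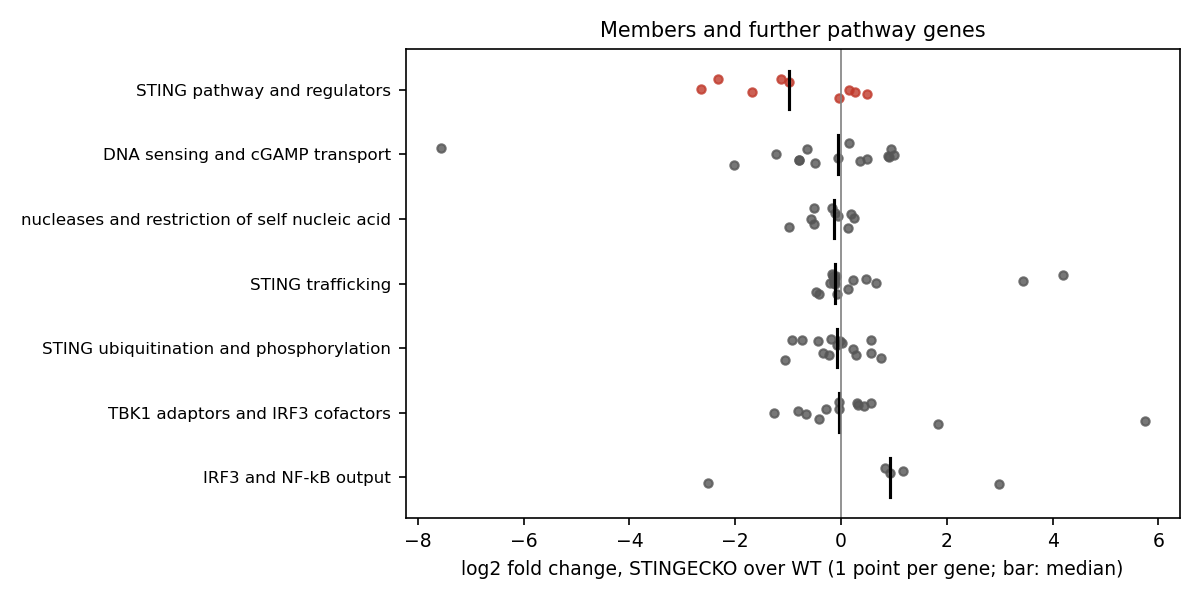
Log2 fold change of STINGECKO over WT for the 9 genes (red) and for the tested genes of 6 further pathway lists (grey), 1 point per gene with the median as a bar. Medians are -0.98 for the 9 genes (-0.01 without WT 5) and -0.14 to -0.03 for 5 lists. For the 5 genes induced through IRF3 and NF-kB the median is 0.92, the value of Isg15 (SE 1.41). These 5 genes run from -2.52 to 2.99, and no gene passed the edgeR test.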

How the data were processed

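Gene-level RNA sequencing of 2 STINGECKO and 2 WT libraries was analysed from 2 tables, each pairing 1 library of each genotype. Per the file headers, the deposited tables give a raw read count per gene and library. They also give the authors' CPM, in which 0 reads are entered as 0.5 of a read. The authors' fold change (a ratio), its log2 and the authors' p-value set a single library against a single library. HTSeq 0.6.0, TopHat2 2.0.12, Bowtie2 2.2.3 and the build mm9 appear in the submitters' processing notes; the strand setting and the annotation used are not stated there. The tables' positions were those of GENCODE M21 (GRCm38) exactly for 89.7% of 17858 matched genes, so the coordinates are those of GRCm38.

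Tables were merged by gene identifier (14100 genes in both), and 20 symbols altered by a spreadsheet were restored. Levels are CPM on TMM-scaled library sizes; 1 read was 0.0451 to 0.0537 CPM before scaling. The genotype test was edgeR 4.0.16's quasi-likelihood test in R 4.3.3, on genes kept by filterByExpr at its minimum count of 10, with TMM factors and Benjamini-Hochberg adjusted p under 0.05; the SE is the absolute log2 fold change over the square root of F. The alternatives were limma-voom (limma 3.58.1), DESeq2 1.42.0, edgeR's likelihood ratio test, other scalings and filters, a block by table and leaving out each library. The fits were checked on simulated counts. Exact 95% binomial intervals (scipy 1.17.1) and zero limits cover counting error only. Exon lengths and overlaps came from GENCODE M21 and promoters from RefSeq. Of the 10 genes, 9 were found in the promoter table; Tmem173 was not.

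The genes, lists, marker lists and alternatives were chosen with earlier results of these data known; the promoter motifs and the comparison of a library with genes of like level were chosen after seeing the data. The text names the 10 genes, the 3 most abundant genes of each list and a few genes said to be chosen after their values were seen. One gene that this rule names is not reported here.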

Additional observations from a re-analysis of the deposited data

How the results depend on the processing

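Over all genes, 0 were called by edgeR's quasi-likelihood test (642 at an unadjusted p under 0.05), 87 by DESeq2, 33 by edgeR's likelihood ratio test and 0 by limma-voom; 0 of the 9 pathway genes were called in each of these fits. Among the further pathway genes DESeq2 called 1, the trafficking gene Stim1 (log2 fold change 3.46). The median over the 9 genes, -0.98, was -0.04 with limma-voom, with the block by table and with a minimum count of 50 (which leaves 7 of them), and -1.11 to -0.01 without each library. Enpp1 turned to 1.10 with limma-voom and 1.06 with the block, and Rsad2 to -2.73 and -1.50; the cause was not tested. Without each library in turn, Tmem173 ranged from -0.55 to 0.63, Ikbke from -8.48 to 0.84, Enpp1 from -2.68 to 6.95, Trim56 from -0.17 to 0.62, Banf1 from -0.56 to 0.60, Rnaseh2c from -0.46 to 0.73, Rab7 from -0.36 to 0.02, Usp21 from -0.42 to 0.08, Ptpn1 from -0.26 to 0.13, Rsad2 from -11.31 to 4.36, Irf7 from -0.75 to 1.58 and Mb21d1 from -9.74 to 2.32. The extremes 6.95, -8.48, -11.31 and -9.74 are set against a genotype left with 0 reads and depend on the fit's prior count. These 12 were the only ones of 32 named genes to change sign; a left-out library leaves its genotype with 1, assumed to vary like the other genotype. Scaling by RLE, upper quartile or library totals turned none of the 32. The labels' numbers (1 and 2, 3 and 5) are not shared between genotypes and give no pairing. The deposited table, which sets 1 library of each genotype side by side, served as a block in an alternative fit. With that block Nlrc3 was at -1.09 (SE 0.39), with an unadjusted p of 0.045 by edgeR's quasi-likelihood test. After adjustment 0 of the 9 passed there. Ikbke, Enpp1, Nlrx1 and Tmem173 had 0 to 182 reads a library, yet counting intervals of libraries of 1 genotype did not meet for Tmem173 in STINGECKO or for Ikbke and Enpp1 in WT, so their spread between libraries exceeds counting error.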

Other observations

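A few further genes of the pathway lists, chosen after their values were seen, stood apart between the genotypes without passing the edgeR test. Traf3, which encodes an adaptor between pattern recognition receptors and TBK1, had 86 and 128 reads in STINGECKO 1 and 2 and 4 and 0 reads in WT 3 and 5. Tmem203, which encodes a partner of STING, had 40 and 147 reads in STINGECKO 1 and 2 and 4 and 6 reads in WT 3 and 5. Their log2 fold changes were 5.74 (SE 2.28) and 4.20 (SE 1.70), in lists where 16 of 75 tested genes lay higher in STINGECKO without overlap, beside 15.4% of all genes. Leaving out each library gave 4.80 to 9.75 for Traf3 and 3.17 to 4.79 for Tmem203; the 9.75 depends on the fit's prior count, since the remaining WT library had 0 reads.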
